A study of Rattus norvegicus with 18 samples.

Results

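Msx1, Msx2 and Hand1 are transcription factor genes known as targets of bone morphogenetic protein (BMP) signalling in mesoderm. They were followed through rat epiblast and primordial germ cells (PGCs, the embryonic precursors of eggs and sperm) as the lines of the deposited table that carry these 3 gene symbols, 3 of 32545 lines. All 3 passed the filter on low values, which left 14865 genes for testing. The trio was chosen by measured RPKM in these data, for high levels in PGCs at embryonic day (E) 9.5 against epiblast at E7.75. Levels of the trio in comparisons that hold those libraries are therefore given as a description, with no test, and the trio is tested only between other libraries. Counts of called genes in gene lists there are likewise descriptions.

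The study sequenced RNA from germ cells between E9.5 and E15.5 and from epiblast, the tissue of the early embryo from which germ cells arise. All 18 libraries came from rats of strain Crlj:WI, a Wistar stock, with the genotype Prdm14-Venus, a fluorescent reporter for the germ cell regulator Prdm14, so no group lacks it. PGCs at E15.5 comprised 2 female and 2 male libraries, and PGCs at E12.5, E11.5, E10.5 and E9.5 comprised 2 libraries each with no sex in their labels. Epiblast comprised 3 libraries at E7.75 and 3 at E7.25, with 2 male and 1 female library at each age. The labels do not say that replicates are separate animals, how many embryos a library pooled or how the cells were sorted, and the p-values therefore cover library-to-library spread that may be technical.

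BMP ligands bind receptor kinases that phosphorylate SMAD1 and SMAD5, which enter the nucleus with SMAD4 and switch on targets such as the Id genes and the inhibitory proteins that dampen the signal. In mouse, BMP4 from the extraembryonic ectoderm induces germ cells in the neighbouring epiblast, and BMP signals later act on fetal female germ cells as they enter meiosis. Msx1 and Msx2 encode homeobox repressors of limb, craniofacial and neural crest tissue, and in mouse they promote meiotic entry in the fetal ovary. Hand1 encodes a basic helix-loop-helix factor needed in mouse for extraembryonic mesoderm, trophoblast and heart.

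Values are RPKM, read counts scaled to transcript length and to the library's total of mapped reads, and tests ran on log2(RPKM + 1), which understates changes of genes near 0. Depth was estimated from low values relative to female epiblast of E7.75. By this estimate, which rests on few genes, the 4 libraries at E10.5 and E11.5 were shallow, at 20.7% to 22.9%. The other 14 had 82.6% to 121%. PGC markers summed to 426 to 1873 RPKM over the 12 PGC libraries, against 21.0 to 43.4 RPKM in epiblast, and 7 to 9 of the 9 markers reached 1 RPKM in each PGC library. In bulk libraries, fewer cells of a type and less RNA per cell cannot be told apart.

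The promoters of the trio are shown so that its members can be compared in the region just before their starts. Each sequence is the 250 bases before the annotated start, from RefSeq on assembly GRCr8, and capitals mark CCAAT, read on either strand, and TATAAA. Msx1 lies at chr14:77185552-77185801 on the plus strand, Msx2 at chr17:11102034-11102283 on the plus strand, and Hand1 at chr10:42509685-42509934 on the minus strand.
Msx1: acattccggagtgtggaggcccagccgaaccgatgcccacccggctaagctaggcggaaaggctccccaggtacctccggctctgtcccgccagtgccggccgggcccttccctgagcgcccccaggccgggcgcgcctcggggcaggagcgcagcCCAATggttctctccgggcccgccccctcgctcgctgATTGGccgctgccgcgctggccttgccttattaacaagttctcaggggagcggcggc
Msx2: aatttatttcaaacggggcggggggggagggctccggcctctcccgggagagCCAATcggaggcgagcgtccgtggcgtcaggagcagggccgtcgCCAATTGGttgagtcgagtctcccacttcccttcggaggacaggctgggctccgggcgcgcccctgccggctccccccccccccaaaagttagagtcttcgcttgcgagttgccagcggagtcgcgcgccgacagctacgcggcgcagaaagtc
Hand1: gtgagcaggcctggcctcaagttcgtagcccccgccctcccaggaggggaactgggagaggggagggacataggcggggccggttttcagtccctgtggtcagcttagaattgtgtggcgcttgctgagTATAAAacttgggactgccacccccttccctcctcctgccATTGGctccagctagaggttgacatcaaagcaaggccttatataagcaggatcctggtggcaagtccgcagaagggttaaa
The capitals differ between the 3 promoters. CCAAT has 2 matches in Msx1, at 94 and 57 bases before the start, 3 in Msx2, at 198, 154 and 151, and 1 in Hand1, at 81, where 34.0% of 33469 rat promoters of this length hold at least 1. The matches in Msx2 at 154 and 151 overlap. TATAAA occurs only in Hand1, 121 bases before the start, and in 12.9% of all promoters. GGGCGG, left in lower case, occurs once in each of the 3 and in 30.5% of all. GGCGCC, a motif that SMAD1 and SMAD5 can bind, and CAGAC, a motif that SMAD4 can bind, have 0 matches on either strand in these windows and occur in 8.69% and 42.9% of all. GC content was 71.2% for Msx1, 67.6% for Msx2 and 57.6% for Hand1, against a median of 51.2%.

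Epiblast held little RNA of the trio, and E9.5 PGCs held the most of any stage. Msx1 was at 378 and 391 RPKM in E9.5 PGCs, against 1.46, 4.99 and 1.70 RPKM in E7.75 epiblast. Msx2 was at 248 and 209 RPKM in E9.5 PGCs, against 0.287, 0.939 and 0.792 RPKM in E7.75 epiblast. Hand1 was at 261 and 245 RPKM in E9.5 PGCs and listed at 0 in all 3 libraries of E7.75 epiblast. The E9.5 libraries stood above every epiblast library for each gene, by 141-fold for mean Msx1 and 340-fold for mean Msx2, and no fold is given for Hand1. These are the values by which the genes were chosen. At E7.25, Msx1 was at 5.01, 2.13 and 1.06 RPKM, Msx2 at 0.526, 0 and 1.35 RPKM, and Hand1 at 0, 0.358 and 0 RPKM, and for each gene the libraries of both epiblast ages overlapped.

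By E10.5 all 3 genes were well below their E9.5 level. Msx1 was at 50.7 and 48.0 RPKM at E10.5, which is 12.9% of its E9.5 mean. Hand1 was at 36.7 and 30.4 RPKM, 13.3% of its E9.5 mean. Msx2 was at 87.9 and 73.8 RPKM, 35.3% of its E9.5 mean, so it kept a larger share of its E9.5 level than the other members. The E10.5 libraries lay below the E9.5 libraries and above the epiblast libraries for every member.

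**Figure D1:**
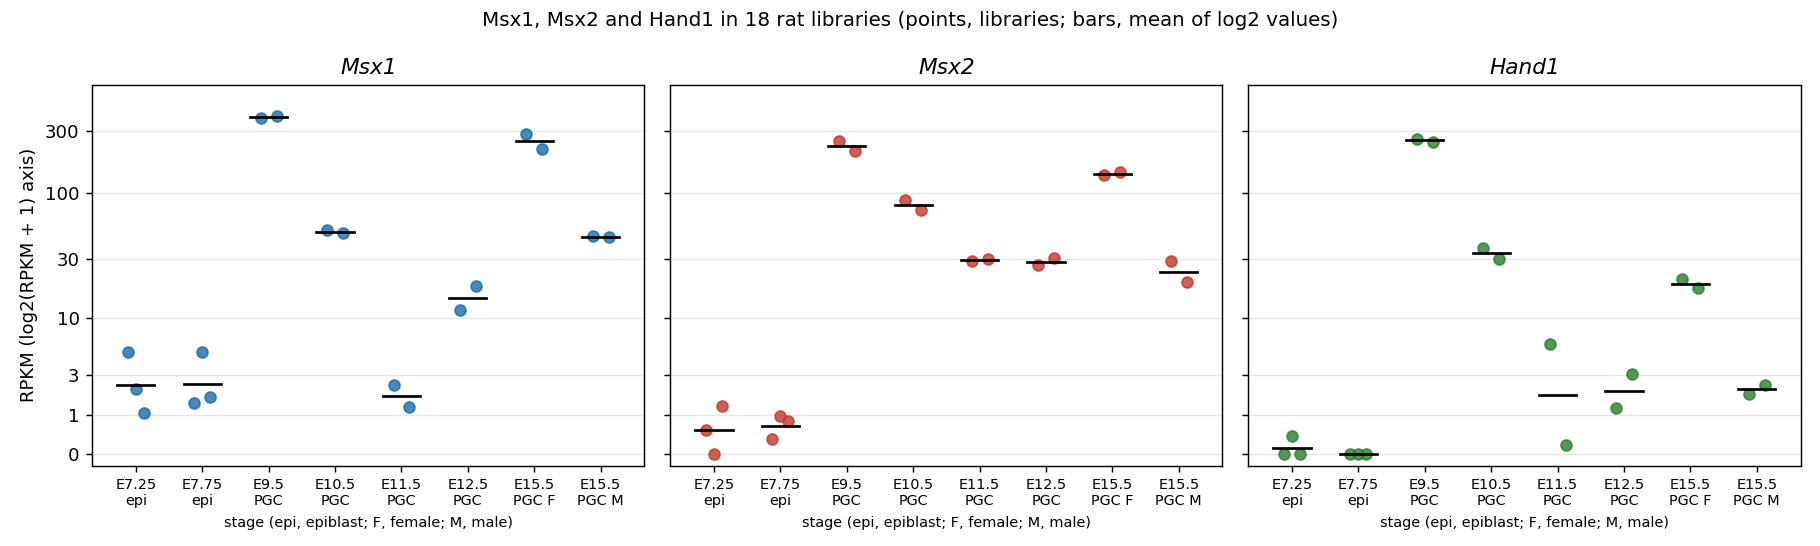
RPKM of Msx1, Msx2 and Hand1 in each of the 18 libraries on a log2(RPKM + 1) axis, by stage, with 1 point per library and a bar at the mean of the log2 values. Each gene is highest in the 2 libraries at E9.5, and the E15.5 female libraries lie above those of E11.5, E12.5 and E15.5 males, with Msx1 at 282 and 218 RPKM there.

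Other BMP targets were also high at E9.5. Of 20 other target genes tested, 19 were called higher and 0 lower in PGCs of E9.5 against epiblast of E7.75, with a median log2 difference of 3.33, beside 16.3% of all genes called higher, 11.3% called lower and a median over all genes of 0.04. In E10.5 against E9.5 PGCs, 1 was higher and 12 lower with a median of -1.38, where 11.5% of all genes were called higher, 18.4% lower, and the median over all genes was -0.16. These comparisons hold the libraries used for the choice, and the list was drawn up with results known. Atoh8, Tbx2, Tbx20 and Hand2 passed the filter on low values only through the E9.5 libraries, so their direction was set by the filter.

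Markers of some other cell types moved with the E9.5 level. Of 12 markers of extraembryonic mesoderm and allantois, 9 to 10 reached 1 RPKM in E9.5 PGCs, with Hoxa13 and Tdo2 at 0 there. The 12 summed to 16.4 to 27.9 RPKM in E7.75 epiblast, 415 to 453 RPKM at E9.5 and 72.3 to 72.5 RPKM at E10.5. Bst2 of this list went the other way, at 10.85 and 14.04 RPKM at E9.5 and 46.8 and 57.1 RPKM at E10.5. Of 17 mesenchyme markers, 9 to 12 reached 1 RPKM at E9.5, and they summed to 3.15 to 11.1 RPKM in E7.75 epiblast, 268 to 272 RPKM at E9.5 and 8.47 to 10.8 RPKM at E10.5, with Col6a1, Col1a2, Dcn and Tbx18 at 0 at E9.5. Both sums were thus far lower at E10.5 than at E9.5. PGC markers instead summed to 657 to 705 RPKM at E10.5 and 426 to 603 RPKM at E9.5. Dppa3 of the PGC list differed widely between the E9.5 libraries, at 0.106 and 31.3 RPKM. Of 12 endothelial and blood markers, 5 to 7 reached 1 RPKM at E9.5, and they summed to 195 RPKM in replicate 1 and 97.9 RPKM in replicate 2, while the 2 libraries at E10.5 had 1.19 and 3.54 RPKM, with Gata1 and Ptprc at 0 at E9.5. Of 13 genes of heart and limb mesoderm, tissues in which Hand or Msx genes are active, 11 were called higher in the comparison with E7.75 epiblast and 13 were called lower at E10.5 than at E9.5, beside 16.3% of all tested genes called higher and 18.4% called lower. These counts come from the contrast used for the choice and support nothing about the trio. Pitx1, Tbx2, Tbx20, Gata5 and Gata6 of this list passed the filter on low values only through the E9.5 libraries. Nkx2-5, Tbx2, Tbx3 and Tbx20 of it are also counted among the other BMP targets. Pitx1 and Tbx4 are also counted among the extraembryonic mesoderm markers. Epiblast markers summed to 1712 to 1853 RPKM in E7.75 epiblast, 31.7 to 44.7 RPKM at E9.5 and 41.6 to 62.6 RPKM at E10.5, and gut endoderm and epithelium markers to 596 to 684, 544 to 687 and 148 to 158 RPKM at these stages. Within the gut endoderm and epithelium list, Cldn6 was at 169 and 149 RPKM at E9.5, against 579, 538 and 497 RPKM in E7.75 epiblast. Krt8, a keratin, was at 297 and 178 RPKM at E9.5, against 11.1, 22.6 and 17.2 RPKM in E7.75 epiblast, and Krt19 and Sox17 were also higher at E9.5 than in that epiblast. Of the 12 genes 4 were called higher and 1 lower at E9.5. Hoxa13, Col1a2, Gata1 and the epiblast marker Fgf5 were listed at 0 in all 18 libraries, so their zeros are not particular to E9.5. The part of these cell types in the E9.5 levels of the trio was not tested.

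In E11.5 against E10.5 PGCs, all 3 genes fell, Msx1 the most in fold of the means. Msx1 was at 2.36 and 1.30 RPKM at E11.5, against 50.7 and 48.0 RPKM at E10.5. Msx2 was at 29.3 and 30.1 RPKM at E11.5, against 87.9 and 73.8 RPKM at E10.5. Hand1 was at 5.92 and 0.160 RPKM at E11.5, against 36.7 and 30.4 RPKM at E10.5. No E11.5 library reached an E10.5 library for any of them, and the E11.5 libraries differed widely from each other for Hand1. In means, E11.5 PGCs held 0.476% of the E9.5 level of Msx1, 1.20% of that of Hand1 and 12.97% of that of Msx2.

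The log2 difference between E11.5 and E10.5 was -4.18 ± 0.46 (SE, n = 2 each) for Msx1, with an adjusted p of 0.000234 from limma with Benjamini-Hochberg adjustment over all tested genes. It was -3.60 ± 0.58 for Hand1 (limma, adjusted p = 0.00339) and -1.41 ± 0.33 for Msx2 (limma, adjusted p = 0.0213). All 3 members were called lower, beside 3.61% of all tested genes called lower and 3.59% called higher. The Msx2 call was lost without E10.5 replicate 1 (limma, adjusted p = 0.106), E11.5 replicate 1 (0.0977) or E11.5 replicate 2 (0.0952). Hand1 ranged from -4.89 to -2.32 when single libraries were left out and kept its call. A fit on the 4 libraries alone called none of the trio, and a pseudocount of 0.1 in place of 1 ended the Msx2 call (0.346).

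Around them, 7 of the 20 other BMP targets fell and 0 rose at E11.5 against E10.5. Their median was -0.86 against 0.03 over all tested genes. Of all tested genes, 3.61% were called lower and 3.59% higher, and the counts of the other lists below stand beside these shares too. Id1, which blocks basic helix-loop-helix factors, was at 90.6 and 99.3 RPKM at E11.5, against 398 and 265 RPKM at E10.5 (log2 -1.77 ± 0.28, limma, adjusted p = 0.00317). Bambi, a decoy receptor for BMP signals, was at 83.0 and 58.3 RPKM at E11.5, against 154 and 233 RPKM at E10.5 (log2 -1.43 ± 0.21, limma, adjusted p = 0.00176). Id2, Id3, Tbx3, Dlx3 and Gata3 were the other targets that fell. Of 8 ligands and antagonists and 14 receptors and SMADs tested, limma called 0 in either direction, with 0 and 3 at an unadjusted p below 0.05. At the shares over all tested genes, lists of this size would hold few calls or none. Bmp4, the ligand that induces germ cells in mouse, was at 181 and 175 RPKM at E11.5, against 197 and 200 RPKM at E10.5 (log2 -0.16 ± 0.32, limma, adjusted p = 0.870). Of 10 extraembryonic mesoderm markers tested, 1 was called higher and 2 lower, with a median of -0.0017. Their sum was 20.8 to 29.3 RPKM at E11.5, against 72.3 to 72.5 RPKM at E10.5, of which Bst2 alone was 3.19 and 5.85 RPKM at E11.5, against 46.8 and 57.1 RPKM at E10.5. The part of these markers' cells in the falls was not tested. Without E11.5 replicate 1 or replicate 2 the count of called genes over the 3 BMP pathway lists was 3 and 4, against 7 with all libraries.

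Between E12.5 and E11.5 the 3 genes differed in what they did. Msx1 was at 11.7 and 18.5 RPKM at E12.5, against 2.36 and 1.30 RPKM at E11.5, an 8.25-fold difference of means. Msx2 was at 26.9 and 30.5 RPKM at E12.5, against 29.3 and 30.1 RPKM at E11.5. Hand1 was at 1.24 and 3.13 RPKM at E12.5, against 5.92 and 0.160 RPKM at E11.5. The libraries of both stages were apart for Msx1 and overlapped for Msx2 and Hand1. Estimated depth was 22.9% and 22.4% at E11.5 and 101% and 113% at E12.5, so depth and stage cannot be told apart in this comparison. Msx1 rose by 2.501 ± 0.46 on the log2 scale (limma, adjusted p = 0.0056), beside 4.12% of all tested genes called higher and 3.09% called lower. Msx2 differed by -0.05 ± 0.33 (95% interval -0.76 to 0.66, limma, adjusted p = 1) and Hand1 by 0.10 ± 0.58 (95% interval -1.15 to 1.36, limma, adjusted p = 0.992). The Msx1 call was lost without E11.5 replicate 2 (limma, adjusted p = 0.0522) or E12.5 replicate 2 (0.0755), and in a fit on the 4 libraries alone (0.0916).

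None of the 20 other BMP targets was called between E12.5 and E11.5 by limma, with 2 at an unadjusted p below 0.05. Their median was 0.15 against 0.08 over all tested genes, of which 4.12% were called higher and 3.09% lower. Id3, the highest of them, was at 581 and 656 RPKM at E12.5, against 577 and 632 RPKM at E11.5. The only pathway gene called was Acvr2b, a type II receptor, at 71.9 and 58.0 RPKM at E12.5, against 101 and 94.6 RPKM at E11.5 (log2 -0.59 ± 0.16, limma, adjusted p = 0.0359). That single call was lost under several alternatives, among them each fit without 1 of the 4 libraries compared.

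**Figure D2:**
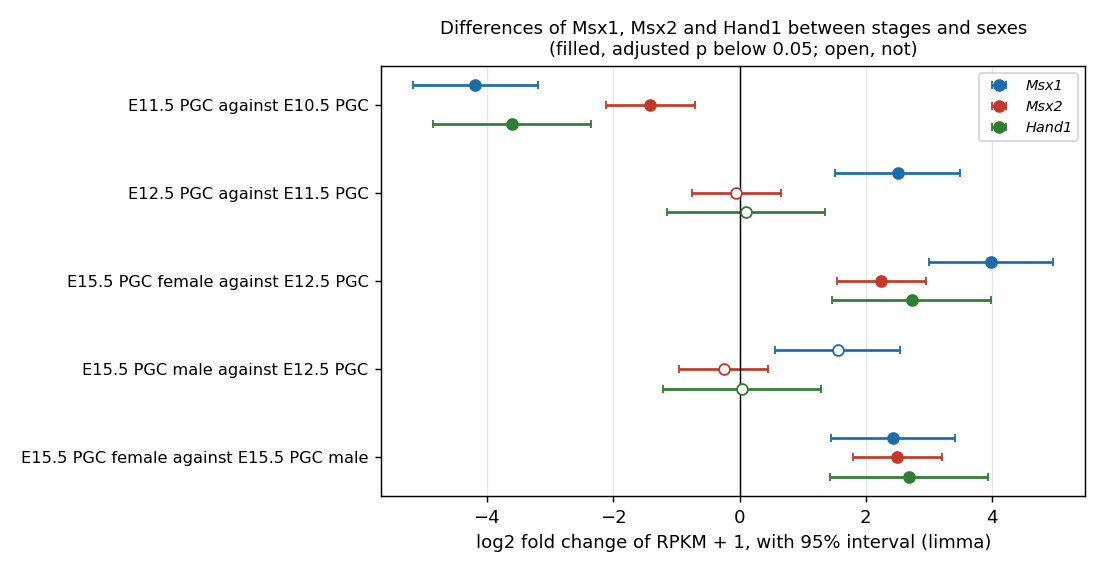
Log2 differences (log2(RPKM + 1) scale) of the 3 genes between libraries outside the contrast used for the choice, later stage minus earlier or female minus male, with 95% intervals from limma. Filled points have an adjusted p below 0.05 and open points do not, and the female minus male differences lie between 2.43 and 2.69 for the 3 genes.

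At E15.5 the trio was high again in female PGCs. Msx1 was at 282 and 218 RPKM in female PGCs, against 45.7 and 44.6 RPKM in male PGCs. Msx2 was at 136 and 143 RPKM in female PGCs, against 29.1 and 19.6 RPKM in male PGCs. Hand1 was at 20.8 and 17.5 RPKM in female PGCs, against 1.87 and 2.39 RPKM in male PGCs. Every female library exceeded every male library for each gene, with mean ratios of 5.53 for Msx1, 5.73 for Msx2 and 8.99 for Hand1. The female mean was 65.0% of the E9.5 mean for Msx1, 61.1% for Msx2 and 7.56% for Hand1, so Hand1 returned to a much smaller share of its E9.5 level.

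The female minus male log2 difference was 2.43 ± 0.46 for Msx1 (95% interval 1.44 to 3.42, limma, adjusted p = 0.00424). It was 2.497 ± 0.33 for Msx2 (95% interval 1.79 to 3.20, limma, adjusted p = 0.000329) and 2.69 ± 0.58 for Hand1 (95% interval 1.43 to 3.94, limma, adjusted p = 0.00986). All 3 were called higher in females, beside 4.33% of all tested genes called higher and 5.35% called lower, and the median over all genes was 0.00. The Hand1 call was lost without male replicate 1 (limma, adjusted p = 0.0754), male replicate 2 (0.0502) or female replicate 1 (0.0605), and Msx1 and Msx2 kept their calls under each of these. A fit on the 4 libraries alone left the differences as they were and called none of the 3 (limma, adjusted p = 0.0746 to 0.0863), and a pseudocount of 0.1 ended the calls of Msx2 (0.0844) and Hand1 (0.110).

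Against E12.5, the mean of both sexes at E15.5 rose for Msx1, by 2.77 ± 0.40 on the log2 scale (limma, adjusted p = 0.000378), and for Msx2, by 0.999 ± 0.29 (limma, adjusted p = 0.0298), beside 6.81% of all tested genes called higher and 8.27% called lower. Hand1 differed by 1.38 ± 0.51 (95% interval 0.29 to 2.47, limma, adjusted p = 0.0863), which did not pass, and it passed without E11.5 replicate 1 (0.00647) or replicate 2 (0.00593), which enter only through the shared spread. The Msx2 call was lost without E12.5 replicate 1 (0.197) or 2 (0.127), male replicate 1 (0.0904), or female replicate 1 (0.0559) or 2 (0.0694), and at a pseudocount of 0.1 (0.433).

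The sexes were then set apart against E12.5, a comparison chosen after seeing the data. In E15.5 females all 3 rose, beside 8.60% of all tested genes called higher and 9.84% called lower. The rise was 3.98 ± 0.46 on the log2 scale for Msx1 (limma, adjusted p = 5.35e-05), 2.25 ± 0.33 for Msx2 (0.000342) and 2.72 ± 0.58 for Hand1 (0.00494). In E15.5 males none was called by limma, where 3.58% of all tested genes were called higher and 5.15% lower. The male difference from E12.5 was 1.55 ± 0.46 for Msx1 (95% interval 0.57 to 2.54, limma, adjusted p = 0.0509), -0.25 ± 0.33 for Msx2 (95% interval -0.96 to 0.46, limma, adjusted p = 0.757) and 0.04 ± 0.58 for Hand1 (95% interval -1.22 to 1.29, limma, adjusted p = 1). Both male libraries lay above both E12.5 libraries for Msx1, and the male and E12.5 libraries overlapped for Msx2 and Hand1. These comparisons share the E12.5 libraries.

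Other BMP targets were higher in E15.5 females too. Of the 20 tested, 10 were higher in females and 0 in males, beside 4.33% and 5.35% of all tested genes, with a median log2 difference of 1.29 against 0.00 over all tested genes. Id1 was at 957 and 1190 RPKM in female PGCs, against 29.4 and 31.0 RPKM in male PGCs (log2 5.10 ± 0.28, limma, adjusted p = 1.43e-07). Id2 was at 402 and 498 RPKM in female PGCs, against 29.3 and 14.6 RPKM in male PGCs (log2 4.37 ± 0.28, limma, adjusted p = 5.98e-07). For both genes the log2 difference was larger than for Msx1, Msx2 or Hand1. Gata2, a zinc finger factor of blood and trophoblast, was at 45.0 and 33.4 RPKM in female PGCs and listed at 0 in both male libraries, and it had the largest log2 difference of the list, 5.32 ± 0.54. Id3, Id4, Bambi, Gata3, Tbx3, Dlx3 and Zfp503 were the other targets that were higher in females.

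The inhibitory SMAD genes, which dampen the signal, were not called. Smad6 had a log2 difference of 0.90 ± 0.68 (limma, adjusted p = 0.496) and Smad7 of -0.17 ± 0.50 (limma, adjusted p = 0.916). Smad6 was at 49.5 and 40.7 RPKM in female PGCs, above the 25.8 and 21.7 RPKM in male PGCs. Smad7 overlapped, at 5.08 and 2.92 RPKM in females and 5.13 and 3.94 RPKM in males. These SEs draw on the spread within all 8 stage groups, so the missing calls do not show equal levels. Sp5, which is also a target of WNT signalling, was at 32.1 and 31.4 RPKM in female PGCs, against 8.58 and 7.64 RPKM in male PGCs, and did not pass (log2 1.85 ± 0.69, limma, adjusted p = 0.118).

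**Figure D3:**
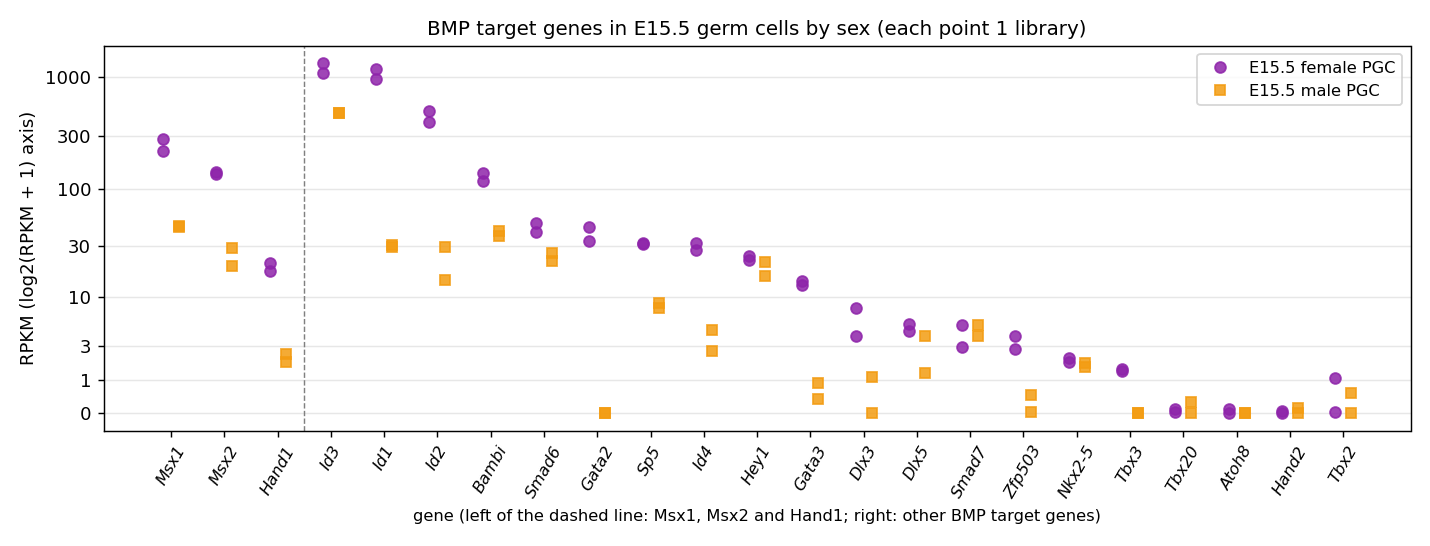
RPKM of the 3 genes and of the 20 other BMP targets tested, in the E15.5 female and male libraries on a log2(RPKM + 1) axis, with 1 point per library. The female points of Msx1, Msx2 and Hand1 lie above all male points, as do those of Id1 at 957 and 1190 RPKM against 29.4 and 31.0 RPKM.

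Between the sexes, calls among the ligand and receptor genes were near the shares over all tested genes, 4.33% higher and 5.35% lower in females. Of the 8 ligands and antagonists limma called 0, with 2 at an unadjusted p below 0.05. Bmp7, the highest of them at E15.5, was at 23.2 and 32.8 RPKM in female PGCs. In male PGCs it was at 60.6 and 65.9 RPKM, above both female libraries. The whole list of 18 genes summed to 46.6 and 62.05 RPKM in females and 94.9 and 94.3 RPKM in males. Bmp4 was at 18.3 and 23.9 RPKM in female PGCs, against 24.2 and 21.3 RPKM in male PGCs, and these libraries overlapped (log2 -0.11 ± 0.32, limma, adjusted p = 0.916). Against 131 and 154 RPKM at E12.5, Bmp4 fell by 2.65 ± 0.27 on the log2 scale at E15.5 (limma, adjusted p = 2.91e-05). Of 14 receptor and SMAD genes, Bmpr1a, a type I receptor, was higher in females, at 29.8 and 17.9 RPKM against 12.7 and 10.8 RPKM in males (log2 0.92 ± 0.26, limma, adjusted p = 0.0415). Acvr2b was lower in females, at 32.4 and 31.3 RPKM against 61.9 and 58.7 RPKM in males (log2 -0.90 ± 0.16, limma, adjusted p = 0.00253). The other 12 did not pass.

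Genes of meiosis and fetal oocytes were partly higher in the same female libraries. Of 14 tested, 5 were higher in females and 0 in males, beside 4.33% and 5.35% of all tested genes. The 5 were Stra8, Zglp1, Rec8, Smc1b and Figla. Stra8 and Figla passed the filter on low values only through the female libraries, so their direction was set by the filter. Dmc1, which was not called, passed in the same way. Stra8, which starts meiosis in mouse, was at 71.9 and 80.4 RPKM in female PGCs and listed at 0 in both male libraries. Zglp1, a factor of the oogenic programme downstream of BMP in mouse, was at 115 and 153 RPKM in female PGCs, against 13.6 and 8.84 RPKM in male PGCs. Sycp3, a part of the synaptonemal complex, was at 46.5 and 78.7 RPKM in female PGCs, against 37.2 and 36.4 RPKM in male PGCs, and did not pass (log2 0.70 ± 0.41, limma, adjusted p = 0.346).

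Markers of gonadal somatic cells summed over 14 genes to 20.4 to 38.1 RPKM in female PGCs and 36.6 to 37.3 RPKM in male PGCs. Foxl2 was listed at 0 in these 4 libraries, as in all 18. The highest of these markers, Lhx9, accounted for 15.1 to 29.5 RPKM. Mesenchyme markers summed to 17.3 to 19.7 RPKM in female PGCs and 26.2 to 29.7 RPKM in male PGCs. Of 13 tested, 0 differed by limma, with 2 at an unadjusted p below 0.05, beside 4.33% of all tested genes called higher and 5.35% lower. PGC markers summed to 1784 to 1840 RPKM in female PGCs and 1849 to 1873 RPKM in male PGCs. Dazl alone was at 938 and 939 RPKM in females and 1069 and 1016 RPKM in males. Of the 9 PGC markers, limma called 1 higher and 0 lower in females. Dppa3 differed widely, at 49.5 and 73.8 RPKM in females against 0.389 and 0.401 RPKM in males. Neither the somatic gonad nor the mesenchyme sum was higher than the male range in both female libraries. Members of the somatic gonad list went different ways. Wnt4 was at 1.61 and 1.27 RPKM in female PGCs and listed at 0 in both male libraries. Amh was at 3.20 and 1.02 RPKM in male PGCs and listed at 0 in both female libraries. The part of somatic cells in the levels of the trio was not tested.

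**Figure D4:**
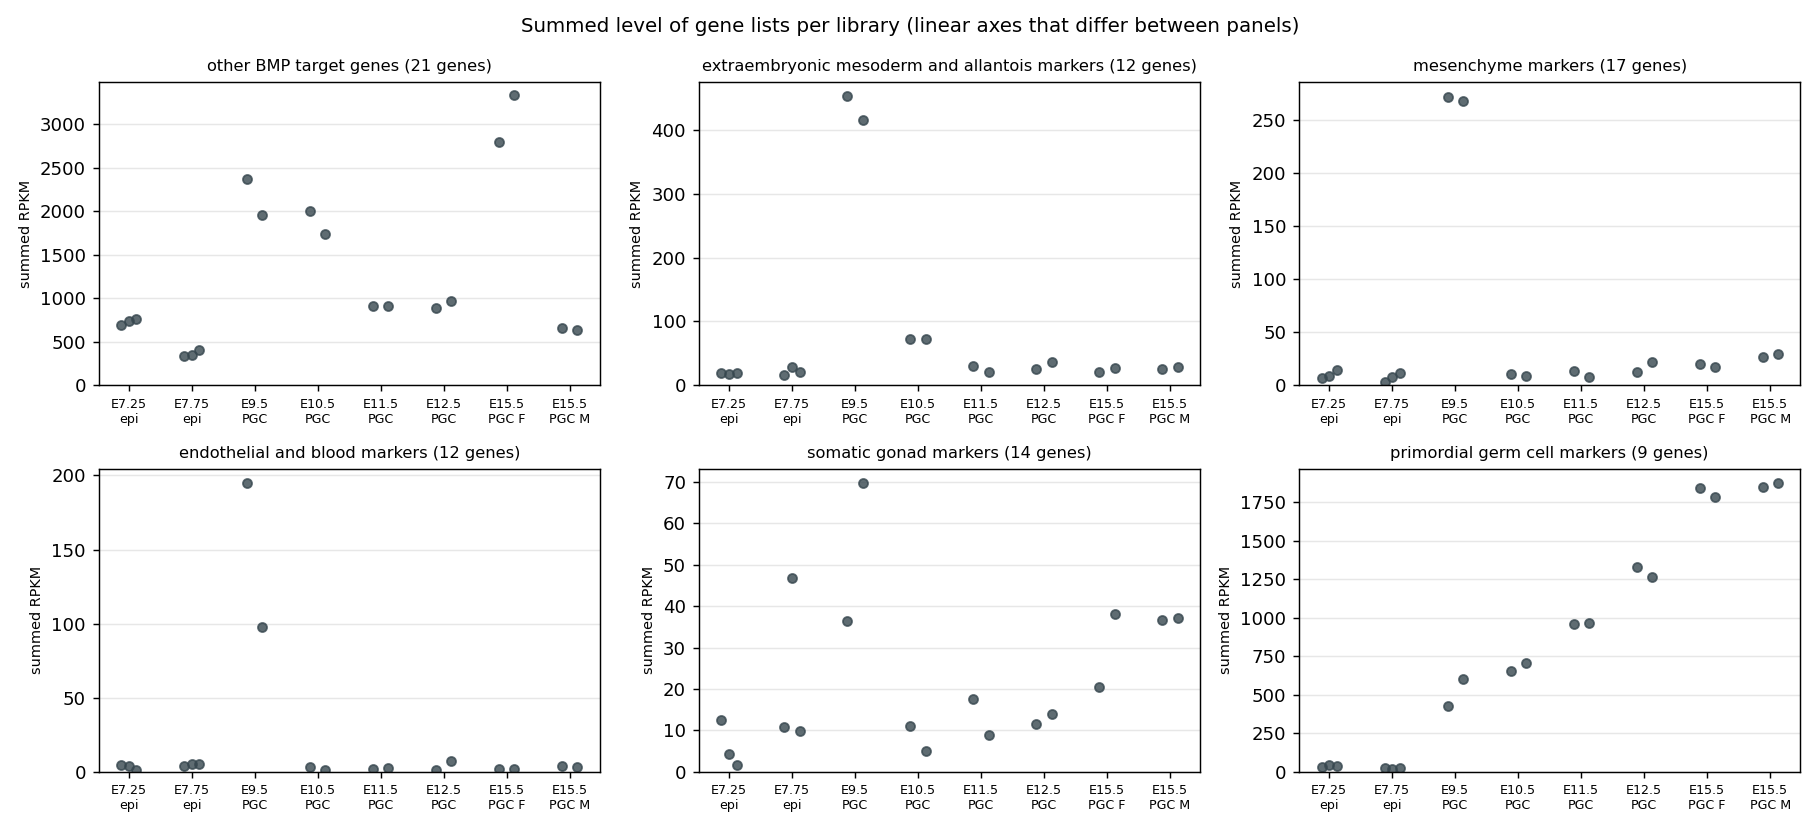
Summed RPKM of 6 gene lists in each library by stage, with 1 point per library on linear axes that differ between panels. Extraembryonic mesoderm and mesenchyme markers are highest at E9.5, at 415 to 453 and 268 to 272 RPKM, and mesenchyme markers sum to 17.3 to 29.7 RPKM over the 4 E15.5 libraries.

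The order of levels was closest for Msx2 and Hand1, in which only neighbouring ranks were swapped, whereas E11.5 PGCs came last for Msx1. Mean Msx1 stood at 384 ± 9.10 RPKM at E9.5 (SD, n = 2), 250 ± 45.1 RPKM in E15.5 females, 49.4 ± 1.90 RPKM at E10.5, 45.2 ± 0.777 in E15.5 males and 15.1 ± 4.78 at E12.5. Below these came E7.25 epiblast at 2.73 ± 2.04 (n = 3), E7.75 epiblast at 2.72 ± 1.97 (n = 3) and E11.5 PGCs at 1.83 ± 0.751, whose libraries overlapped in that order. Mean Msx2 stood at 229 ± 27.6 RPKM at E9.5, at 140 ± 4.73 in E15.5 females and 80.8 ± 9.96 at E10.5. The next 3 stages, E11.5 at 29.7 ± 0.554, E12.5 at 28.7 ± 2.61 and E15.5 males at 24.4 ± 6.69, overlapped, and epiblast was lowest at 0.673 ± 0.342 at E7.75 and 0.624 ± 0.678 at E7.25. Mean Hand1 stood at 253 ± 11.1 RPKM at E9.5, followed by E10.5 with 33.6 ± 4.47 and E15.5 females with 19.2 ± 2.27. E11.5 at 3.04 ± 4.07, E12.5 at 2.183 ± 1.34 and E15.5 males at 2.13 ± 0.363 overlapped. Epiblast was again lowest, at 0.119 ± 0.207 at E7.25 and 0 in all 3 libraries at E7.75. Both E11.5 libraries lay within the epiblast range for Msx1, 1 of them, at 0.160 RPKM, did so for Hand1, and every PGC library lay above the epiblast range for Msx2.

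The ratio of Msx2 to Msx1 within a library was 0.657 and 0.536 at E9.5, 1.73 and 1.54 at E10.5, 12.4 and 23.1 at E11.5 and 2.29 and 1.65 at E12.5. At E15.5 it was 0.484 and 0.656 in females and 0.636 and 0.440 in males. Msx1 was the more abundant per length at E9.5 and E15.5, and Msx2 at the stages between, and the sexes overlapped in this ratio although both genes differed between them. Across the 18 libraries Pearson's r of log2(RPKM + 1) was 0.839 for Msx1 and Msx2, 0.867 for Msx1 and Hand1 and 0.855 for Msx2 and Hand1, as a description of libraries that share stages. Over the 12 PGC libraries it was 0.819, 0.781 and 0.912 for these pairs. Both sets hold the E9.5 libraries, and the larger one the E7.75 epiblast libraries, by which the genes were chosen, so the choice itself favours a high r.

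Among 11094 genes that reached a mean of 5 RPKM in some stage, those with the most similar pattern differed by member. Msx1 was most like Grsf1 (r = 0.950 over 18 libraries), Dusp5 (0.948), Nkd1 (0.924), Cdx1 (0.905) and Adcy2 (0.899). Hand1 was most like Bambi (0.948), Rgs5 (0.938), Hoxd1 (0.937), Cdx1 (0.934) and Cdx2 (0.927), so Cdx1, a caudal-type homeobox gene of the posterior embryo, stood among the 5 for both. Msx2 was most like Ndfip2 (0.978), Lhpp (0.960), Lamp2 (0.957), Serinc3 (0.953) and Snai2 (0.946). Mean Cdx1 was 97.2 RPKM at E9.5, 22.2 at E10.5, 2.09 at E11.5 and 5.65 at E12.5, and at E15.5 it was 27.3 in females and 3.66 in males, against 0 in epiblast. Ndfip2 ranged far less than Msx2, with means of 52.1 RPKM in E7.75 epiblast and 183 RPKM at E9.5, since the measure ignores the size of the change.

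**Figure D5:**
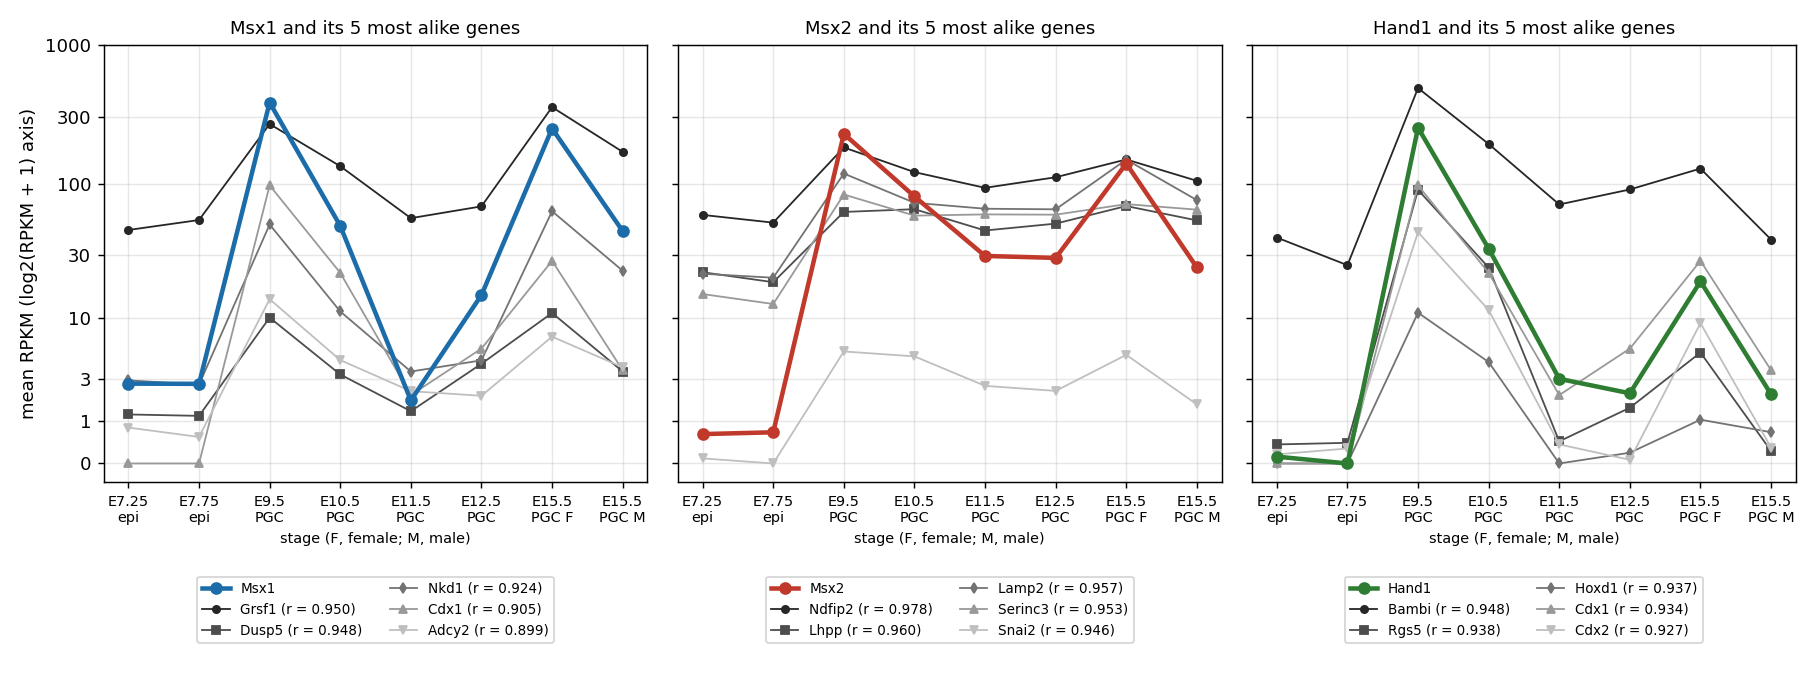
Stage means in RPKM on a log2(RPKM + 1) axis of each of the 3 genes and of the 5 genes whose pattern over 18 libraries was most like it by Pearson's r. Cdx1 stands among the 5 for Msx1 and for Hand1, with 97.2 RPKM at E9.5 and 27.3 RPKM in E15.5 females.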

How the data were processed

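RNA of 18 rat libraries was isolated with the PicoPure kit and amplified and made into libraries with the SMART-Seq v4 kit, per the labels' protocols. The authors deposited 1 RPKM value per gene and library. Per the submitters' processing notes, the tools were Cufflinks 2.2.1, TopHat2 2.1.0, bcl2fastq 2.18.0.12 and cutadapt 1.14, and the genome build was rn6. For the annotation release, multi-mapping reads and strand, settings were not given in the sources used here, and the RPKM of closely related genes is uncertain for that reason. RPKM is relative to each library's total, so a few abundant genes shift all others.

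From these values, log2(RPKM + 1) of 14865 genes with at least 1 RPKM in at least 2 libraries went into limma 3.58.1 (R 4.3.3) with a variance trend, 8 stage groups and 10 residual degrees of freedom. P-values were adjusted by Benjamini-Hochberg over all of these genes, with a threshold of 0.05. The script was tested on simulated data. All 18 libraries share 1 estimate of the spread. For relative depth, each library was set against the E7.75 female library, gene by gene, over low values with a limit of 50 RPKM. The ratio shared by the largest number of genes was taken, in bins of 0.001 on the natural log scale. Few genes shared it, from 45 of 8305 for E10.5 replicate 1 to 162 of 10805 for E7.25 male replicate 2. The depths are therefore rough, and no read counts were used. The members, the 12 gene lists and the tests were chosen with earlier results of these data known. Some genes stand in several lists, so counts and sums of different lists are not independent. Named genes are the members and, for each, the 5 genes with the highest Pearson correlation among 11094 with a stage mean of at least 5 RPKM. For the BMP lists, the rule was the largest called rise, the largest called fall and the highest gene not called. It was not followed in every list and comparison, so the BMP genes shown were not fixed by rule. Other names, among them the further called targets and the meiosis genes, were chosen after their values were seen. The alternatives were a pseudocount of 0.1, no filter, quantile normalization, only the libraries compared, a replicate block, no variance trend and leaving out each library. Promoters were matched by symbol (3 of 3 members) to RefSeq on GRCr8, a build other than that of the files, and motifs were searched on both strands.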

Additional observations from a re-analysis of the deposited data

Results flagged for a closer look

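The change between E15.5 and E12.5 differed between the sexes for all 3 genes. The female change exceeded the male change by 2.43 on the log2 scale for Msx1, 2.497 for Msx2 and 2.69 for Hand1. Both changes are taken against the same E12.5 libraries, so each difference equals the female minus male contrast at E15.5. That contrast passed in limma with an adjusted p of 0.00424 for Msx1, 0.000329 for Msx2 and 0.00986 for Hand1. Both female libraries were above both male libraries for each gene. Stra8 moved with the difference, at 71.9 and 80.4 RPKM in female PGCs and 0 in both male libraries. It passed the filter on low values only through the female libraries. The part of meiosis in the difference was not tested.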

How the results depend on the processing

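Each result was recomputed under 24 alternatives, and 339 recomputed values kept their direction and their side of the threshold, or their count within 1.5 times. Of the others, 24 lost a call, 15 were counts that moved further, 4 turned direction and 2 gained a call. Leaving out a library outside the groups compared cannot change a log2 difference, so many of the 339 could not have turned direction. A fit on only the libraries compared ended 7 calls with the log2 differences as they were. These were E11.5 against E10.5 for Msx1 (-4.18, limma, adjusted p = 0.0971), Msx2 (-1.41, 0.116) and Hand1 (-3.60, 0.320), E12.5 against E11.5 for Msx1 (2.501, 0.0916), and female against male for Msx1 (2.43, 0.0746), Msx2 (2.497, 0.0822) and Hand1 (2.69, 0.0863). With fewer libraries that fit has 2 residual degrees of freedom, and it called 56, 0 and 0 genes in these comparisons by limma, with 3707 and 3183 at an unadjusted p below 0.05 where the count was 0, against 1069, 1072 and 1439 with all libraries. A pseudocount of 0.1 ended 4 calls, for Msx2 at E11.5 against E10.5 (-1.44), at E15.5 against E12.5 (1.01) and in females against males (2.54), and for Hand1 in females against males (3.11). The cause was not tested. Quantile normalization turned Hand1 at E12.5 against E11.5 to -0.16. Chosen after seeing the data, males alone at E15.5 against E12.5 gave 1.55 for Msx1, -0.25 for Msx2 and 1297 genes called, and females alone gave 2.72 for Hand1. Leaving out single libraries gave -1.54 to -1.29 for Msx2 and 353 to 1360 genes called at E11.5 against E10.5. At E12.5 against E11.5 it gave 2.19 to 2.81 for Msx1, -0.14 to 0.040 for Msx2, -1.19 to 1.39 for Hand1 (-0.34 without E12.5 replicate 2) and 251 to 1305 genes. At E15.5 against E12.5 it gave 0.86 to 1.135 for Msx2, 0.94 to 1.82 for Hand1 and 908 to 2473 genes. In females against males it gave 2.57 to 2.81 for Hand1 and 672 to 1679 genes. Replicate numbers did not pair the libraries, with correlations of deviations between -0.133 and 0.0581 over 15 pairs of PGC groups, and 0 above 0.1. The replicate block changed no call of the 3 genes, with 2.43, 2.497 and 2.69 for females against males, and 964, 993, 2148 and 1384 genes called in the 4 comparisons. Groups of 2 libraries limit every test, and the 4 libraries at E10.5 and E11.5 were estimated at 20.7% to 22.9% of the depth of the E7.75 female library.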

Other observations

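Genes of heart and limb mesoderm, in which Hand or Msx genes are also active, were compared with the trio over all stages. Summed over 16 genes, they stood at 13.9 to 25.9 RPKM in E7.75 epiblast, 215 to 279 RPKM at E9.5, 5.28 to 7.95 RPKM at E10.5, 3.64 to 11.97 RPKM at E11.5 and 13.2 to 13.3 RPKM at E12.5. At E15.5 they summed to 12.6 to 17.1 RPKM in females and 16.7 to 18.7 RPKM in males, ranges that overlapped. Of the 13 tested, limma called 1 (Tbx3) higher and 0 lower in females, which is near the 4.33% and 5.35% of all tested genes. Tbx3 is also counted among the other BMP targets called higher in females. Nkx2-5, Tbx2 and Tbx20 stand in both lists too. Pitx1 and Tbx4 are also extraembryonic mesoderm markers here, and Gata4 is also a somatic gonad marker.

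Genes of meiosis and fetal oocytes summed over 15 genes to 13.0 to 14.9 RPKM at E9.5, 24.0 to 38.9 RPKM at E10.5, 108 to 121 RPKM at E11.5 and 168 to 178 RPKM at E12.5. At E15.5 they summed to 616 to 787 RPKM in females and 327 to 335 RPKM in males. Their sum was lowest at the PGC stage at which the trio was highest. At E11.5, where Msx1 was at 2.36 and 1.30 RPKM, 5 of 14 were higher than at E10.5 and 0 lower by limma, beside 3.59% and 3.61% of all tested genes.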
